A study of Mus musculus with 21 samples.

Results

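The nuclear-encoded genes of the mitochondrial respiratory chain were followed in mouse hepatocellular carcinoma. Members were the protein-coding rows whose GRCm38 symbol starts with Nduf, Uqcr, Atp5 or Cox4 to Cox8, or is Sdha, Sdhb, Sdhc, Sdhd or Cyc1. The rule gave 95 of 55487 Ensembl identifiers, under 94 symbols because Atp5o has a pair of identifiers. By symbol they fall into 38 complex I genes, 8 complex I assembly factors (Ndufaf), 4 complex II, 9 complex III, 18 complex IV and 18 complex V genes. Of the 95, 88 passed the filter on low counts and were tested, and 7 did not pass: Cox6a2, Cox6b2, Cox7a1, Cox7b2, Cox8b, Cox8c and the second Atp5o identifier. A further 13 rows fit the letters of the rule without being annotated as protein coding. They were 12 processed pseudogenes, with mean levels of at most 0.218 CPM (counts scaled to a fixed library total), and Ndufb1-ps at 26.2 CPM, and they are not members.

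The respiratory chain sits in the inner mitochondrial membrane. Complex I takes electrons from NADH and complex II takes them from succinate, complex III passes them to cytochrome c, complex IV hands them to oxygen, and complex V, the ATP synthase, uses the proton gradient that complexes I, III and IV build. The subunits are encoded in part by the nucleus and in part by mitochondrial DNA, and the genes described here are the nuclear set. Complex II is encoded by the nucleus alone, and its subunits also form succinate dehydrogenase of the citric acid cycle.

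Tumours were grown from Hepa1-6, a mouse hepatoma cell line, in C57BL/6 mice that were WT or had undergone B-cell depletion, and treatment was either an isotype antibody or the pair anti-PD1 plus anti-CTLA4, here called the combination. WT tumours gave 5 libraries under isotype and 5 under the combination, and B-depleted tumours gave 6 and 5, each of total RNA from frozen hepatocellular carcinoma tissue. The series asks what B cells do in the response of this tumour to the antibodies. The sources used here do not give how B cells were depleted, the age and sex of the mice, or whether each library is a separate animal, so p-values measure the spread between these samples.

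At the shallowest library 1 CPM was 9.52 counts, and the deepest held 19.17 counts per CPM. Levels of the hepatoma and hepatocyte markers summed to 217 to 4350 CPM over the 21 libraries, with none of the 8 at 0 in a whole group. The 6 B-cell markers summed to 7.23 to 16.4 CPM in WT isotype and 5.51 to 13.9 CPM in B-depleted isotype, ranges that overlap, and to 30.8 to 68.9 against 12.8 to 26.3 CPM under the combination. Cd22 made up most of these sums (4.88 to 14.1 and 5.07 to 12.7 CPM under isotype), while Ms4a1 stood at 0.11 to 1.05 CPM in WT isotype and 0 to 0.104 CPM in B-depleted isotype, without overlap. B-depleted combination replicate 5 stood apart from its group: the members took 0.357% of its counts and 0.432% to 0.456% of the counts of the other 4. It also carried 24400 CPM of 8 fibroblast markers where the other 4 had 2890 to 8640 CPM. Replicate 4 of the same group carried 404 CPM of 8 adipocyte markers, where the other 20 libraries had 26.7 to 57.6 CPM. The effect of leaving out libraries is given beside the results it changes.

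Per kilobase of exon, the ATP synthase catalytic subunit gene Atp5b had the highest mean level over all libraries, 142 CPM per kb. Cox8a, a small structural subunit of complex IV, followed at 130, Atp5a1, the other catalytic-head subunit, at 128, Cox6a1 at 108 and Cox6b1 at 93.4 CPM per kb. Among tested members the lowest were the assembly factor Ndufaf2 at 1.39 and Ndufb2 at 1.89 CPM per kb. The length is the union of all annotated exons, which counts every transcript of a gene, so genes with long alternative transcripts, such as Atp5l, read low on this scale. Together the members made up 0.431% ± 0.0236 of counts in WT isotype (SD, n = 5), 0.373% ± 0.0349 in WT combination (n = 5), 0.437% ± 0.0224 in B-depleted isotype (n = 6) and 0.428% ± 0.0407 in B-depleted combination (n = 5).

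**Figure D1:**
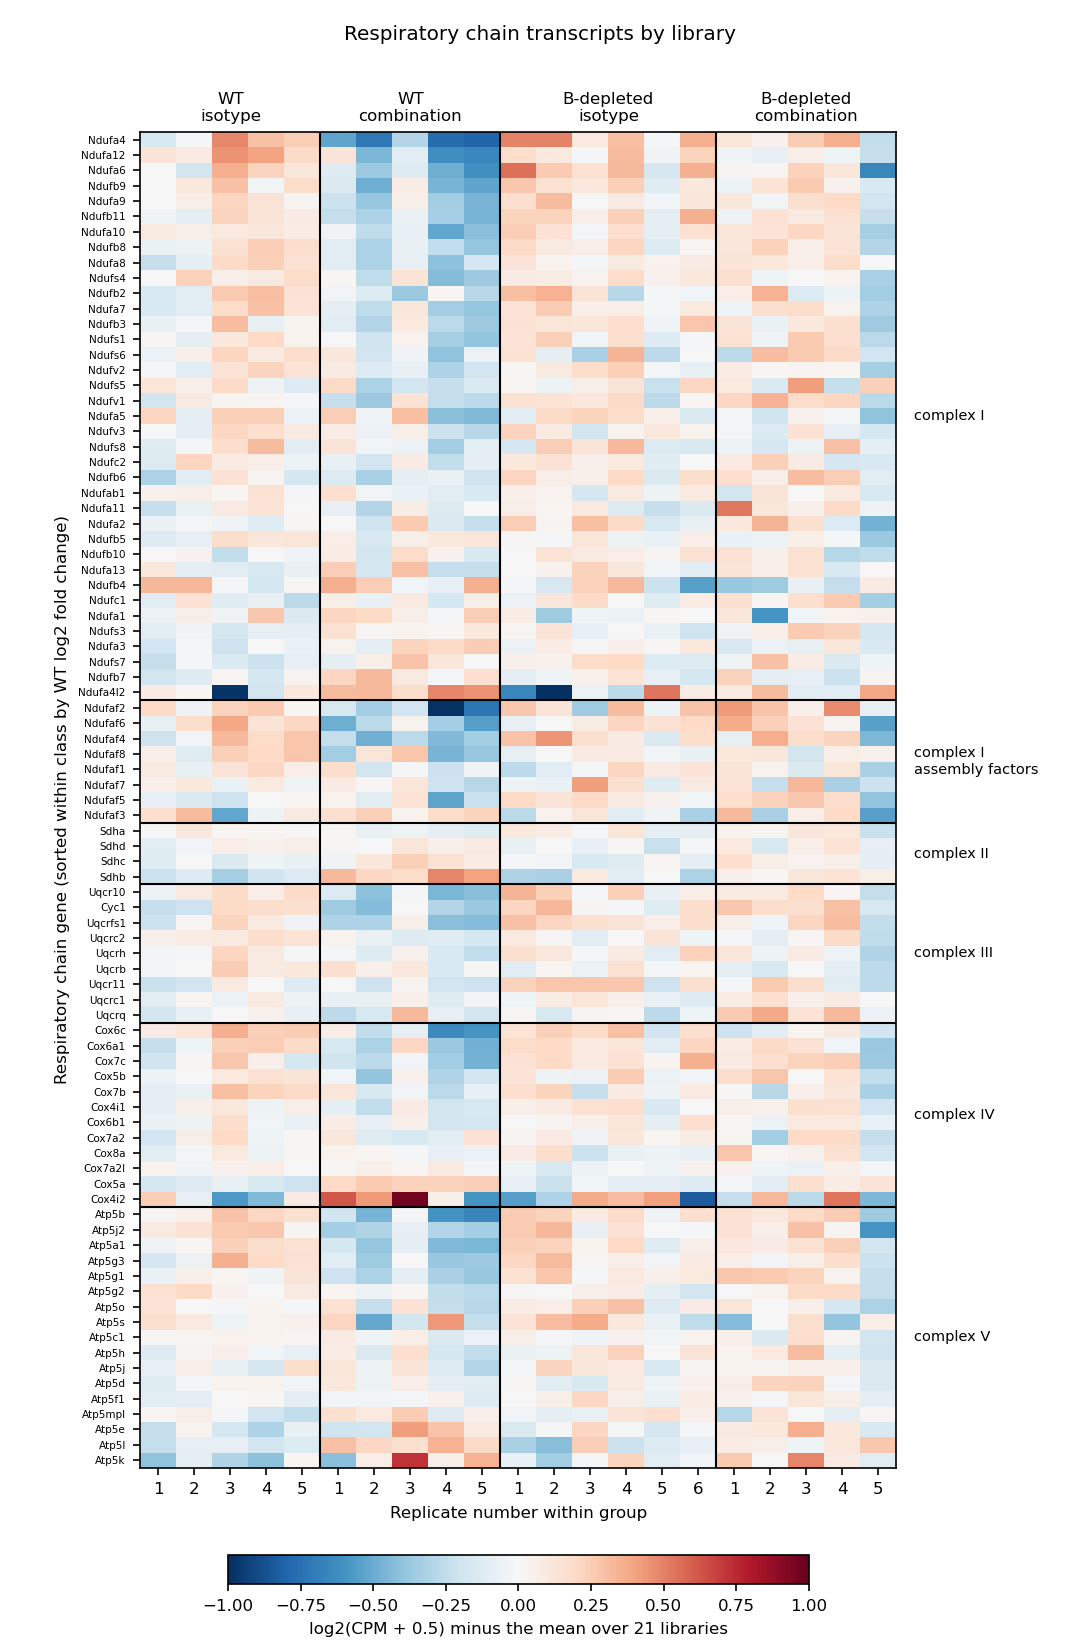
Each row is 1 of 87 of the tested members, sorted within its complex by the log2 fold change of WT combination against WT isotype, and each column 1 of the 21 libraries. Colour is log2(CPM + 0.5) minus that gene's mean over the libraries, and values beyond 1 in either direction take the end colour. The columns of WT combination replicates 2, 4 and 5 are blue in most complex I rows and replicate 3 less so, all 5 are red for Sdhb, Cox5a and Atp5l, and B-depleted combination replicate 5 is blue in most rows.

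In WT tumours the combination went with small changes in both directions. Of the 88 members 33 were called, which is 37.5%, where 50.0% of all 19061 genes tested were called. Among them 24 fell (27.3%, against 25.0% of all genes) and 9 rose (10.2%, against 25.0%). The median log2 fold change was -0.117 for the members and -0.001 for all genes, and no called member reached 2-fold. Among all genes 9529 were called, and 3390 of them reached 2-fold. Calls are from edgeR's quasi-likelihood test and need a p under 0.05 after Benjamini-Hochberg adjustment across the 19061 genes. In bulk tumour RNA, fewer cells of a type and less RNA per cell cannot be told apart. At an unadjusted p under 0.05 there were 41 members, beside 56.5% of all genes. The 2 WT groups did not overlap for 5 members that were higher and 12 that were lower under the combination, 5.68% and 13.6% of members, where 15.0% and 14.3% of all genes stood apart in those directions.

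In complex I, the largest class, 11 of 38 genes fell and 4 rose, with a median of -0.149. The largest fall was that of Ndufa4, named for complex I but known as a subunit of complex IV (chr6:11900292-11907497, minus strand, GRCm38). Ndufa4 stood at 28.6, 31.7, 45.0, 39.3 and 38.1 CPM in WT isotype replicates 1 to 5 and at 22.0, 19.3, 26.1, 18.6 and 18.2 CPM in WT combination replicates 1 to 5. Every combination library was below every isotype library. Its log2 fold change was -0.79 ± 0.145 (SE; adjusted p = 0.000356), or 0.577-fold. Ndufa12, an accessory subunit, went from 36.2, 35.0, 45.2, 44.0 and 37.8 CPM to 36.3, 23.9, 30.6, 21.4 and 20.9 CPM. Its groups overlapped through combination replicate 1, and it fell by 0.56 ± 0.129 (adjusted p = 0.0018). Ndufa6, another accessory subunit, fell by 0.43 ± 0.152 (adjusted p = 0.0237), a call lost without WT isotype replicate 3 (0.0872) or WT combination replicate 4 (0.0643) or 5 (0.076).

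The rises in complex I were smaller. Ndufb7 rose by 0.27 ± 0.093 (adjusted p = 0.0234), Ndufs7, an iron-sulfur subunit, by 0.25 ± 0.098 (0.0428) and Ndufa3 by 0.25 ± 0.084 (0.0217), and all 3 had groups that overlapped. Each call depended on the settings and on single libraries. With no filter on low counts the adjusted p was 0.147 for Ndufb7, 0.206 for Ndufs7 and 0.16 for Ndufa3. In the same order it was 0.0508, 0.0796 and 0.0798 with only the 2 groups fitted. With all libraries thinned to the depth of the shallowest it was 0.123, 0.126 and 0.0831. Without 1 library, the call of Ndufs7 was kept in 9 of 21 refits, with adjusted p up to 0.13 (without WT combination replicate 3). Ndufb7 was lost without WT isotype replicate 1 (0.0662), 2 (0.0629) or 4 (0.0709) or WT combination replicate 2 (0.0828), and Ndufa3 without WT isotype replicate 1 (0.0674) or 5 (0.0552) or WT combination replicate 3 (0.0542). Of the core subunits that carry electrons, Ndufs1 (-0.20 ± 0.1, adjusted p = 0.0943) and Ndufv1 (-0.15 ± 0.111, adjusted p = 0.264) did not pass.

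Of the 8 complex I assembly factors, proteins that help build the complex without staying in it, 3 fell and none rose (median -0.204). Ndufaf2 went from 4.69, 3.86, 4.76, 4.92 and 4.08 CPM in WT isotype to 3.54, 3.04, 3.46, 1.78 and 2.21 CPM in WT combination. The groups did not overlap, and Ndufaf2 fell by 0.65 ± 0.192 (adjusted p = 0.00901). Ndufaf6 fell by 0.51 ± 0.163 (adjusted p = 0.0144) and Ndufaf4 by 0.47 ± 0.136 (adjusted p = 0.00806). All 3 kept their calls when any single library was left out.

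Complex II was the only class with rises and no fall among its called genes, 2 of 4, with a median of 0.138. Sdhb encodes the iron-sulfur subunit that passes electrons from the flavoprotein to the membrane anchor (chr4:140961203-140979193, plus strand). In WT isotype replicates 1 to 5 Sdhb stood at 25.01, 26.5, 22.9, 25.2 and 26.4 CPM, and in WT combination at 36.4, 33.6, 33.02, 40.9 and 38.6 CPM. The lowest combination library was above the highest isotype library. Sdhb rose by 0.55 ± 0.085 (adjusted p = 0.000111), or 1.47-fold, the largest rise of a called member. Sdhc, a membrane anchor, rose by 0.21 ± 0.063 (adjusted p = 0.0102) with groups that overlapped, a call lost with no filter on low counts (0.17, adjusted p = 0.115) and with only the 2 groups fitted (0.19, adjusted p = 0.0511). The flavoprotein gene Sdha (-0.08 ± 0.058, adjusted p = 0.259) and the other anchor Sdhd (0.07 ± 0.07, adjusted p = 0.439) did not pass.

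In complex III 4 of 9 genes fell and none rose, with a median of -0.135. Uqcr10, a small subunit, fell by 0.36 ± 0.103 (adjusted p = 0.007). Cyc1, cytochrome c1, stood at 39.6, 40.4, 53.6, 52.7 and 52.2 CPM in WT isotype and at 36.4, 34.3, 46.7, 38.0 and 35.8 CPM in WT combination. Only combination replicate 3 was above the lowest isotype library. Cyc1 fell by 0.30 ± 0.118 (adjusted p = 0.0414), and Uqcrfs1, the Rieske iron-sulfur protein, by 0.28 ± 0.111 (adjusted p = 0.0437). The 2 calls were kept in 14 and 15 of 21 refits without 1 library, and both were lost without WT isotype replicate 3 or 4 or WT combination replicate 1, 2, 4 or 5, Cyc1 also without WT isotype replicate 5 (adjusted p up to 0.135 for Cyc1 and 0.155 for Uqcrfs1, each without WT isotype replicate 3). With only the 2 groups fitted, both calls were also lost (adjusted p = 0.0687 for Cyc1 and 0.0738 for Uqcrfs1). Uqcrc1, a core protein, did not pass (-0.01 ± 0.059, adjusted p = 0.936).

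Complex IV had 1 rise and 1 fall among 12 tested genes, with a median of -0.077. Cox5a (chr9:57521274-57532426, plus strand), a subunit on the matrix side, stood at 39.0, 40.2, 41.9, 39.6 and 38.2 CPM in WT isotype and at 50.8, 53.0, 51.8, 51.8 and 52.4 CPM in WT combination. The groups did not overlap, and the 5 combination libraries lay within 2.13 CPM of each other. Cox5a rose by 0.40 ± 0.066 (adjusted p = 0.000167). Cox6c went from 73.8, 75.6, 89.4, 82.3 and 82.9 CPM to 72.9, 58.5, 65.8, 44.6 and 46.1 CPM and fell by 0.47 ± 0.12 (adjusted p = 0.00339), with no overlap between the groups. The ubiquitous forms Cox4i1 (-0.11 ± 0.078), Cox6a1 (-0.28 ± 0.127), Cox6b1 (-0.04 ± 0.076), Cox7a2 (-0.02 ± 0.103), Cox7b (-0.18 ± 0.109) and Cox8a (0.01 ± 0.077) did not pass, with adjusted p from 0.0736 to 0.946.

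In complex V 5 of 17 tested genes fell and 2 rose, with a median of -0.024. Atp5b, the catalytic beta subunit (chr10:128083273-128090391, plus strand), stood at 595, 612, 718, 682 and 655 CPM in WT isotype and at 515, 428, 585, 389 and 374 CPM in WT combination, with no overlap. Atp5b fell by 0.49 ± 0.12 (adjusted p = 0.00266). Atp5a1, the alpha subunit, stood at 389, 405, 469, 451 and 441 CPM in WT isotype and at 353, 305, 372, 293 and 290.1 CPM in WT combination, again with no overlap. It fell by 0.40 ± 0.093 (adjusted p = 0.00194), and Atp5j2, a subunit of the membrane part, by 0.42 ± 0.122 (adjusted p = 0.00831). In the other direction Atp5l, the g subunit of the membrane part, went from 39.8, 44.4, 44.3, 41.4 and 42.9 CPM to 57.9, 54.3, 52.5, 60.1 and 53.8 CPM. The groups did not overlap, and Atp5l rose by 0.41 ± 0.101 (adjusted p = 0.00299). Atp5k, the e subunit, which pairs with the g subunit, rose by 0.50 ± 0.191 (adjusted p = 0.0362) with groups that overlapped. The Atp5k call was lost without WT isotype replicate 1 (0.0836), 3 (0.0593) or 4 (0.0908) or WT combination replicate 3 (0.147) or 5 (0.073). It was also lost with limma voom (0.071), with no filter on low counts (0.0991) and with only the 2 groups fitted (0.096). Among these genes Atp5l has the pseudogenes Atp5l-ps1 (0.119 CPM), Atp5l-ps2 (0.0802 CPM) and Atp5l2-ps (0.123 CPM), and the counting program's treatment of reads shared with them is not given in the sources used here.

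**Figure D2:**
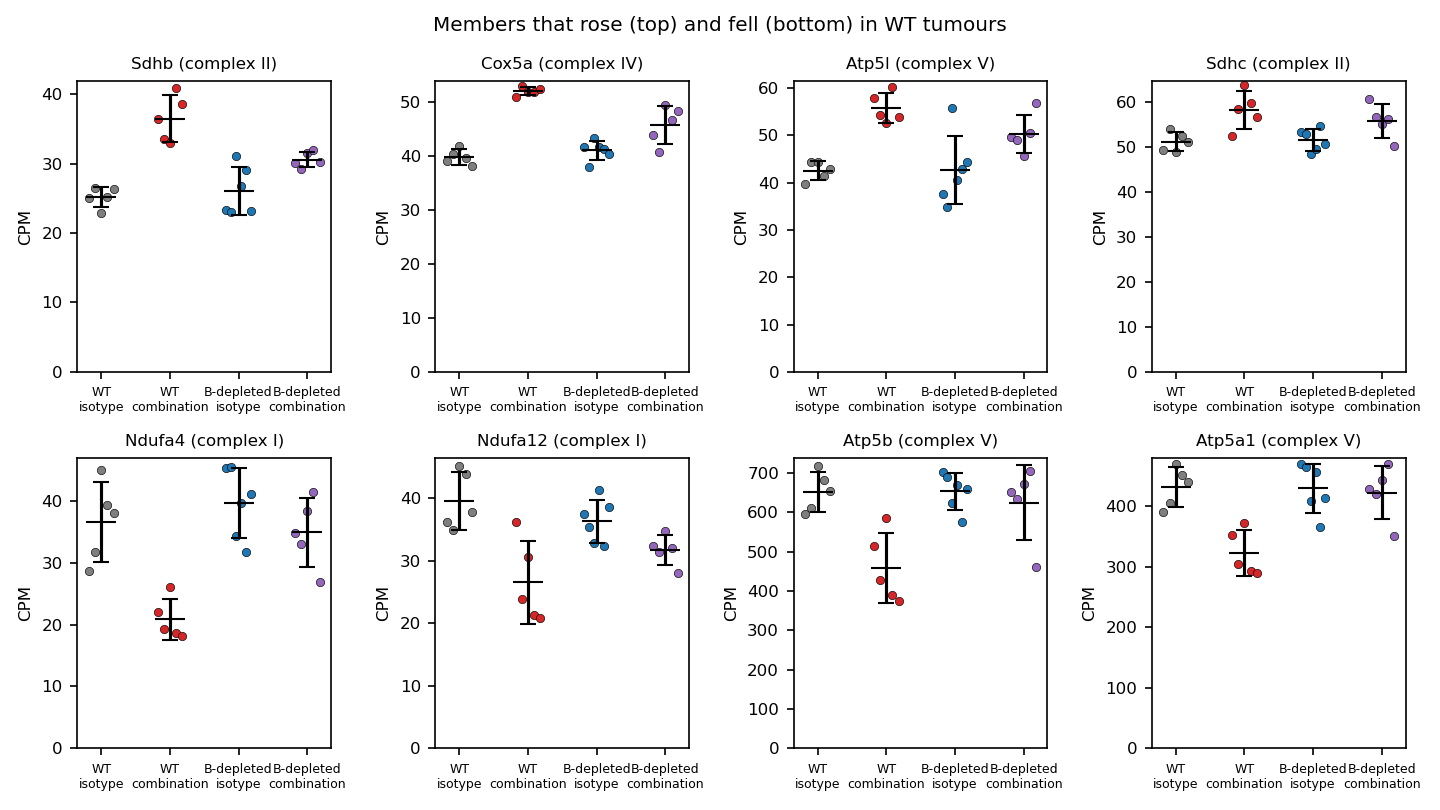
CPM of 4 members that rose (top) and 4 that fell (bottom) in WT tumours, 1 point per library in the 4 groups, with the mean and SD as bars. For Sdhb, Cox5a, Atp5l, Ndufa4, Atp5b and Atp5a1 the WT combination points lie outside the WT isotype points, while those of Sdhc and Ndufa12 overlap them.

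The start regions of 5 members that moved in opposite directions are printed to show what letters they hold. Windows from 250 bases before to 50 bases after the RefSeq start site (GRCm38.p6) were found for 77 of the 95 members and searched on both strands for CCGGAAG (the ETS core that GABP, a known regulator of respiratory chain genes, can bind), GCGC followed by any base and TGCGC (NRF1) and AAGATGG (YY1). Matches of different motifs do not overlap in the printed stretches. Capitals mark matches, and each stretch runs from 170 bases before to 30 bases after the start site, 5′ to 3′ on the gene's strand.
Sdhb, chr4:140961101-140961300, plus strand: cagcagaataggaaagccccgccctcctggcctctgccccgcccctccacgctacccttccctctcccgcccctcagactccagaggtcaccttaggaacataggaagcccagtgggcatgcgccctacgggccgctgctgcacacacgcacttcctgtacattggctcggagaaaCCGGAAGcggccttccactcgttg
Ndufs3, chr2:90904692-90904891, minus strand: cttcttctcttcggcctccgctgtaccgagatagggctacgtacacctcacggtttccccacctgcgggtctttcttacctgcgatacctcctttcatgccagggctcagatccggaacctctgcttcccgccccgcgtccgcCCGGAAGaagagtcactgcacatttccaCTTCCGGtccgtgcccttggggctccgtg
Cox5a, chr9:57521062-57521261, plus strand: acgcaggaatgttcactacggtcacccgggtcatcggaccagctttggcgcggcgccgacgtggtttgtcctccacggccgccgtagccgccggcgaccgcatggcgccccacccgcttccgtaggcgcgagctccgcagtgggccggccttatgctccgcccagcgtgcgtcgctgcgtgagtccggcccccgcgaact
Ndufa4, chr6:11907421-11907620, minus strand: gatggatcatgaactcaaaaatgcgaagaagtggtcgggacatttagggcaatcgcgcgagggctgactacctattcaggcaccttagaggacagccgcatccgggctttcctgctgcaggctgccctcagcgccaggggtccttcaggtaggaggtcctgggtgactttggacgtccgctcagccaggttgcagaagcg
Ndufaf4, chr4:24897913-24898112, plus strand: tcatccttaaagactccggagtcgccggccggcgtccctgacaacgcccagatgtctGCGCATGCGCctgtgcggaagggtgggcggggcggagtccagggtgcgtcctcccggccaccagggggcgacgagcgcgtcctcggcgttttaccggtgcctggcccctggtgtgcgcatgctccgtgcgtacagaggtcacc

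Sdhb holds the ETS letters at bases 7 to 13 after the start site, and Ndufs3, a core subunit of complex I that rose by 0.19 ± 0.073 (adjusted p = 0.0404), holds them on both strands. Cox5a, which rose, and Ndufa4, which fell, hold none of the 3 motifs in the printed stretch, and Ndufaf4, which fell, holds NRF1 letters. Among members with a window, the ETS letters were in 5 of the 8 that rose (Ndufb7, Ndufs3, Sdhb, Atp5k and Atp5l), in none of the 17 that fell and in 12 of the 48 counted as not called. Of these 5, Sdhb and Atp5l kept their calls in 21 of 21 refits without 1 library. Ndufb7 kept its call in 17 and Atp5k in 16, and such refits of Ndufs3 are not given here. The 48 and the 77 hold the same Atp5o window under both of its identifiers, although the second identifier was not tested. That window holds NRF1 letters and no ETS letters. The ETS letters were in 22.1% of all member windows and in 9.12% of the 27025 RefSeq windows. For a member the window nearest its annotated start was used, and for the RefSeq windows the first listed of each gene. The RefSeq windows were not filtered by expression, so these shares and those that follow are not fully alike. NRF1 letters were in 24.7% of member windows and 4.78% of all, and YY1 letters in 14.3% and 6.48%. A first search covered the 250 upstream bases alone and 5 motifs. It gave the ETS letters in 3 of 8, 0 of 17 and 10 of 48 windows, NRF1 letters in 16.9% of member windows (3.86% of all) and YY1 letters in 0 of 77 (4.53% of all). The other 2 motifs, CACGTG and CCAAT, were in 7.79% and 44.2% of member windows against 7.24% and 37.9% of all in the wider window. The wider window, the 3 motifs marked and the genes printed, Ndufs3 among them, were chosen after those values were seen, so the counts are a description with no test. A match is a run of letters and not a measured site.

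The marker lists moved in the same comparison, in which 25.0% of all genes rose and 25.0% fell. In WT tumours 10 of 10 T-cell markers rose (summed level 83.4 to 173 CPM in isotype, 412 to 652 CPM in combination), as did 8 of 8 macrophage markers (710 to 1490 and 1720 to 3410 CPM), 5 of 5 tested B-cell markers, 6 of 8 fibroblast markers (2670 to 5070 and 7330 to 26300 CPM) and 3 of 6 endothelial markers (147 to 237 and 214 to 421 CPM). Of the 8 hepatoma and hepatocyte markers 6 fell, from 1170 to 4350 CPM in isotype to 217 to 1270 CPM in combination. No marker of these lists was at 0 in every library of a group. The part of immune and stromal cells in the members' changes was not tested.

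All 4 Y-linked transcripts (Ddx3y, Uty, Eif2s3y and Kdm5d), which come only from cells that carry a Y chromosome, rose in WT tumours, from a sum of 47.6 to 79.2 CPM in isotype to 135 to 250 CPM in combination. The WT ranges do not overlap, so a fit with this sum as a covariate has little left to separate it from the treatment. In that fit no member was called, but only 72 genes were called in all where 9529 were without it. The members' median turned from -0.117 to 0.154, and 9 of 9 risen but only 8 of 24 fallen members kept their sign. Cox5a kept its size (0.38 ± 0.11, adjusted p = 0.118), Sdhb went to 0.23 ± 0.11 (0.41), Ndufa4 to -0.10 ± 0.14 (0.867) and Atp5b turned to 0.06 ± 0.12 (0.917). With the summed hepatoma markers as the covariate, an alternative chosen after the data were seen, no member and 205 genes were called, the median was 0.103, and 9 of 9 risen and 15 of 24 fallen members kept their sign. With the skeletal muscle markers as the covariate 7461 genes were called, all 33 members kept their sign and 26 their call.

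**Figure D3:**
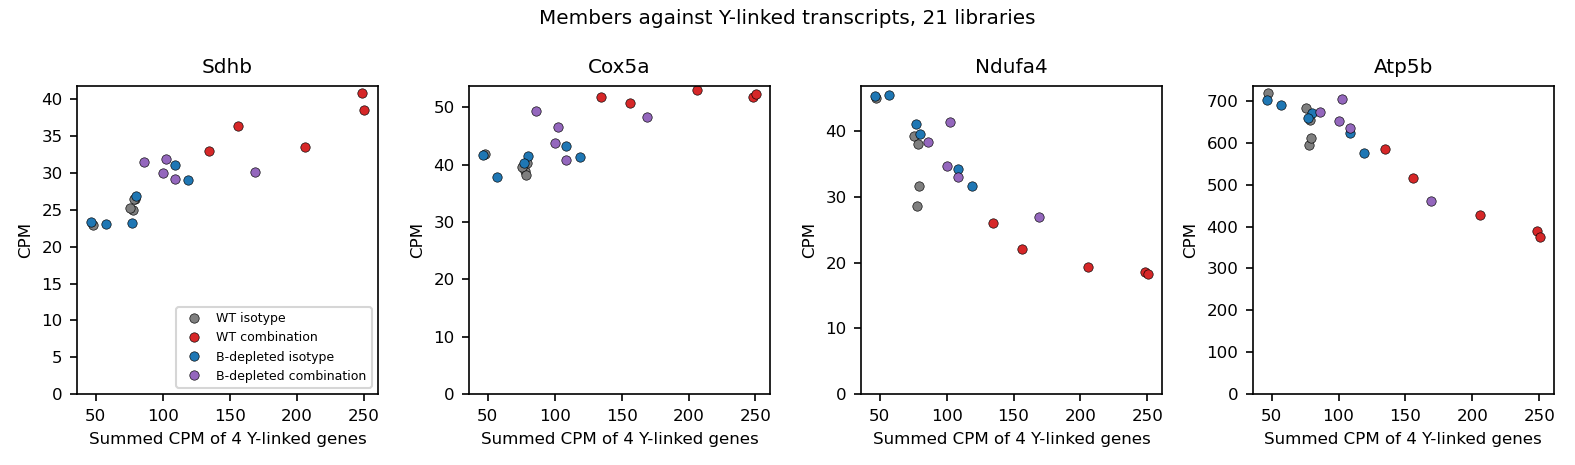
CPM of Sdhb, Cox5a, Ndufa4 and Atp5b (vertical axes, from 0) against the summed CPM of 4 Y-linked genes (horizontal axis), 1 point per library, coloured by group. The WT combination libraries have the 5 highest Y-linked sums except for B-depleted combination replicate 5, whose 169 CPM lies above the 135 and 156 CPM of 2 of them.

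Several members have partners made in particular tissues or conditions. Ndufa4l2, a hypoxia-induced relative of Ndufa4, stood at 8.78, 8.38, 3.94, 7.22 and 8.94 CPM in WT isotype and at 10.4, 10.47, 9.37, 11.8 and 11.5 CPM in WT combination. The groups did not overlap, but the log2 fold change of 0.55 ± 0.243 did not pass (adjusted p = 0.0664). The log2 ratio of Ndufa4l2 to Ndufa4 counts was -2.33 ± 0.71 in WT isotype and -0.95 ± 0.341 in WT combination (SD, n = 5 each), a difference of 1.38 that was higher in 5 of 5 combination libraries. The exact permutation p of 0.00794 is the smallest that 252 splits allow, and over the 8 ratio tests it became 0.0635, which does not pass. In B-depleted tumours the ratio was -2.50 ± 0.782 under isotype (n = 6) and -1.94 ± 0.471 under the combination (n = 5), a difference of 0.56 (exact permutation p = 0.203, adjusted 0.325). Between the combination groups the ratio was lower by 0.99 in B-depleted tumours (exact permutation p = 0.0159, adjusted 0.0636), a comparison that uses the same WT combination libraries as the first. The ratio of Cox4i2, the hypoxia- and lung-associated form of subunit 4, to Cox4i1 had no exact permutation p under 0.111 in the 4 comparisons.

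The muscle and testis forms were near the counting floor. Cox6a2, Cox7a1 and Cox8b, the heart and skeletal muscle forms of their subunits, reached at most 0.916, 0.731 and 0.507 CPM in any library, and Cox6b2, a testis form, 0.825 CPM. Cox7a1 stood at 0 to 0.221 CPM in WT isotype and 0.356 to 0.731 CPM in WT combination, without overlap, and was not tested. The WT groups overlapped for Cox6a2, Cox8b and Cox6b2. Cox8c had 1 count in each of 2 WT isotype libraries and none elsewhere, and Cox7b2 and the second Atp5o identifier had none in any library. A total of 0 in the shallowest library allows up to 3 counts, or 0.315 CPM, by counting error alone. The 10 skeletal muscle markers summed to 34.6 to 257 CPM in WT combination and 2.06 to 114 CPM in WT isotype, and the part of muscle in the low levels of Cox6a2, Cox7a1 and Cox8b was not tested.

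**Figure D4:**
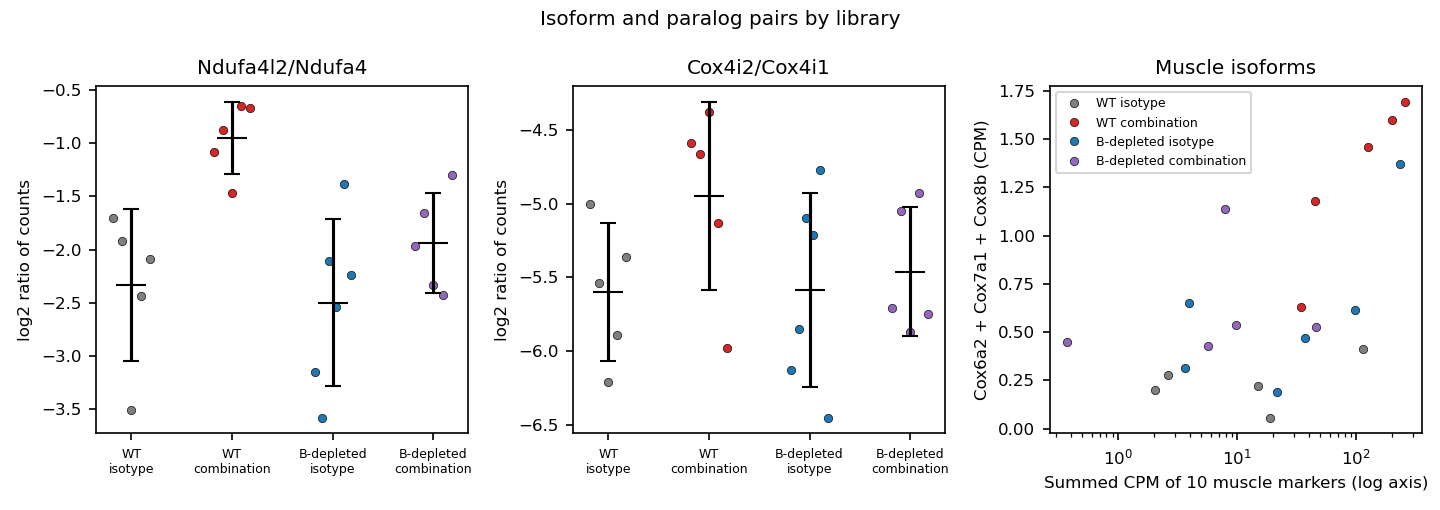
The left and middle panels give the log2 ratio of counts of Ndufa4l2 to Ndufa4 and of Cox4i2 to Cox4i1, 1 point per library with the group mean and SD; the right panel gives the summed CPM of Cox6a2, Cox7a1 and Cox8b against the summed CPM of 10 muscle markers on a log axis. The 5 WT combination libraries lie above all WT isotype libraries in the first panel and overlap them in the second.

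In B-depleted tumours the combination changed no member past the threshold. The count was 0 of 88, where 0.341% of all genes were called (0.304% higher, 0.0367% lower), and the median was -0.012. The groups overlapped for all 88, where 1.14% of all genes stood apart as higher and 0.876% as lower. Members with an unadjusted p under 0.05 numbered 6 by edgeR, beside 14.3% of all genes (Sdhb, Uqcrq, Cox5a, Atp5l, Ndufa11 and Sdhc, all higher), and DESeq2 and limma voom also called none, with 5 each at an unadjusted p under 0.05. Sdhb had the smallest p: its lowest, median and highest levels were 23.0, 25.1 and 31.1 CPM in the 6 isotype libraries, and it stood at 30.03, 29.3, 31.5, 31.9 and 30.2 CPM in combination replicates 1 to 5. The groups overlapped, and the log2 fold change was 0.25 ± 0.082 (adjusted p = 0.178). Uqcrq, a small subunit of complex III, had 0.30 ± 0.104 (adjusted p = 0.199), Cox5a 0.18 ± 0.063 (adjusted p = 0.209), Atp5l 0.26 ± 0.097 (adjusted p = 0.23) and Ndufa11, an accessory subunit of complex I, 0.25 ± 0.108 (adjusted p = 0.287). Ndufa4 had -0.17 ± 0.138 with a 95% interval from -0.46 to 0.12, and Atp5b -0.05 ± 0.114 with an interval from -0.29 to 0.19. Leaving out B-depleted combination replicate 5 left the count at 0, as did leaving out any other library.

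For the 33 members called in WT tumours, the B-depleted response had the same sign in 28, in 8 of the 9 that rose and 20 of the 24 that fell. Their median absolute log2 fold change was 0.33 in WT, where they were picked for passing, and 0.08 in the WT direction in B-depleted tumours. The 2 responses share no library. The same share over all genes called in WT is not given here, so this agreement is not shown to be particular to the members.

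Under isotype antibody, no member differed past the threshold between B-depleted and WT tumours. None of the 88 was called, nor any of the 19061 genes (0%), and the median log2 fold change was 0 with values from -0.18 to 0.25. By edgeR 1 member had an unadjusted p under 0.05, beside 2.95% of all genes: Uqcr11, a small complex III subunit, at 0.25 ± 0.106 (adjusted p = 1), and DESeq2 and limma voom called none, with 2 and 1 at an unadjusted p under 0.05. Uqcr11 stood at 14.7 to 18.4 CPM in WT isotype and at a lowest, median and highest of 14.9, 20.6 and 20.97 CPM in B-depleted isotype. The 95% interval of the difference was -0.14 to 0.20 for Sdhb, -0.10 to 0.16 for Cox5a, -0.19 to 0.38 for Ndufa4 and -0.25 to 0.22 for Atp5b.

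Under the combination, more members were higher in B-depleted than in WT tumours. Of 88 members 19 were higher (21.6%, against 15.5% of all genes) and 2 were lower (2.27%, against 13.5%), and the median was 0.075 against 0.003 for all genes. In both directions that is 23.9%, against 29.1% of all genes, and 32 members had an unadjusted p under 0.05 beside 43.5% of all genes. By class, 10 of 38 complex I genes, 2 of 8 assembly factors, 3 of 9 complex III, 1 of 12 complex IV and 3 of 17 complex V genes were higher, and 1 complex II and 1 complex IV gene lower. This comparison and the WT response share the 5 WT combination libraries, so their values are set side by side and not counted as separate evidence. The groups did not overlap for 3 members that were higher (Ndufa4, Ndufa8 and Ndufaf2) and 2 that were lower (Sdhb and Cox5a), 3.41% and 2.27% of members, where 4.51% and 6.03% of all genes stood apart.

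Ndufa4 stood at 34.8, 33.05, 38.4, 41.4 and 26.9 CPM in B-depleted combination replicates 1 to 5, all above the 18.2 to 26.1 CPM of WT combination. It was higher by 0.72 ± 0.145 (adjusted p = 0.00582), beside -0.79 in the WT response. Ndufaf2 stood at 5.57, 5.01, 4.17, 5.77 and 3.78 CPM, above the 1.78 to 3.54 CPM of WT combination, and was higher by 0.77 ± 0.194 (adjusted p = 0.0118). Atp5b stood at 652, 634, 673, 705 and 460.3 CPM, the last of which lies among the WT combination libraries, and was higher by 0.43 ± 0.12 (adjusted p = 0.0171). Its call was lost without WT combination replicate 4 (0.0534) or 5 (0.0535).

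Of the other members that were higher, Atp5a1 was higher by 0.37 ± 0.093 (adjusted p = 0.0117), Atp5g1, which encodes the c subunit of the rotor, by 0.37 ± 0.082 (0.0081) and Cyc1 by 0.42 ± 0.119 (0.017). These 3, Ndufa4 and Ndufaf2 kept their calls when any single library was left out. Ndufb9 (0.34), Ndufv1 (0.31), Ndufaf4 (0.41), Uqcrfs1 (0.33), Uqcr10 (0.30) and Cox7c (0.32) were called too and kept the call in 13 to 15 of 21 such refits. Sdhb was lower by 0.27 ± 0.085 (adjusted p = 0.0258), at 29.3 to 31.9 CPM against 33.02 to 40.9 CPM. Cox5a was lower by 0.20 ± 0.066 (adjusted p = 0.0321), at 40.8 to 49.4 CPM against 50.8 to 53.0 CPM. The calls of Sdhb and Cox5a were kept in 16 and 15 of 21 refits.

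The count of members that were higher moved with the libraries used, as did that of all genes called (5545 with every library). It was 29 without WT combination replicate 3 and 26 without B-depleted combination replicate 5, and it was 15 without replicates 4 and 5 of that group, a choice made after the data were seen. All genes called numbered 7101, 7606 and 6259 in these settings. The count of members fell to 6 without WT combination replicate 4 or 5 (2182 and 2251 genes), 7 without WT combination replicate 2 or B-depleted combination replicate 4, 8 without B-depleted combination replicate 3, 9 without replicate 1 and 11 without replicate 2 of that group, with 3042 to 3748 genes called in these 5 settings. The Y-linked transcripts, summing to 85.9 to 169 CPM in B-depleted combination, were lower there in 4 of 4 cases, the hepatoma markers (945 to 2450 CPM) higher in 6 of 8, T-cell markers (244 to 342 CPM) lower in 8 of 10, macrophage markers (988 to 2130 CPM) lower in 6 of 8 and muscle markers (0.372 to 46.3 CPM) lower in 5 of 10. With the Y-linked covariate no member and only 4 genes were called, and the 21 members kept their signs. With the muscle markers as a covariate 1 member was higher and none lower, with 720 genes called, while all 21 kept their signs and several their size: Ndufaf2 had 0.77 (adjusted p = 0.0568), Atp5a1 0.39 (0.0546) and Cyc1 0.50 (0.0518). The part of other cell types was not tested.

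**Figure D5:**
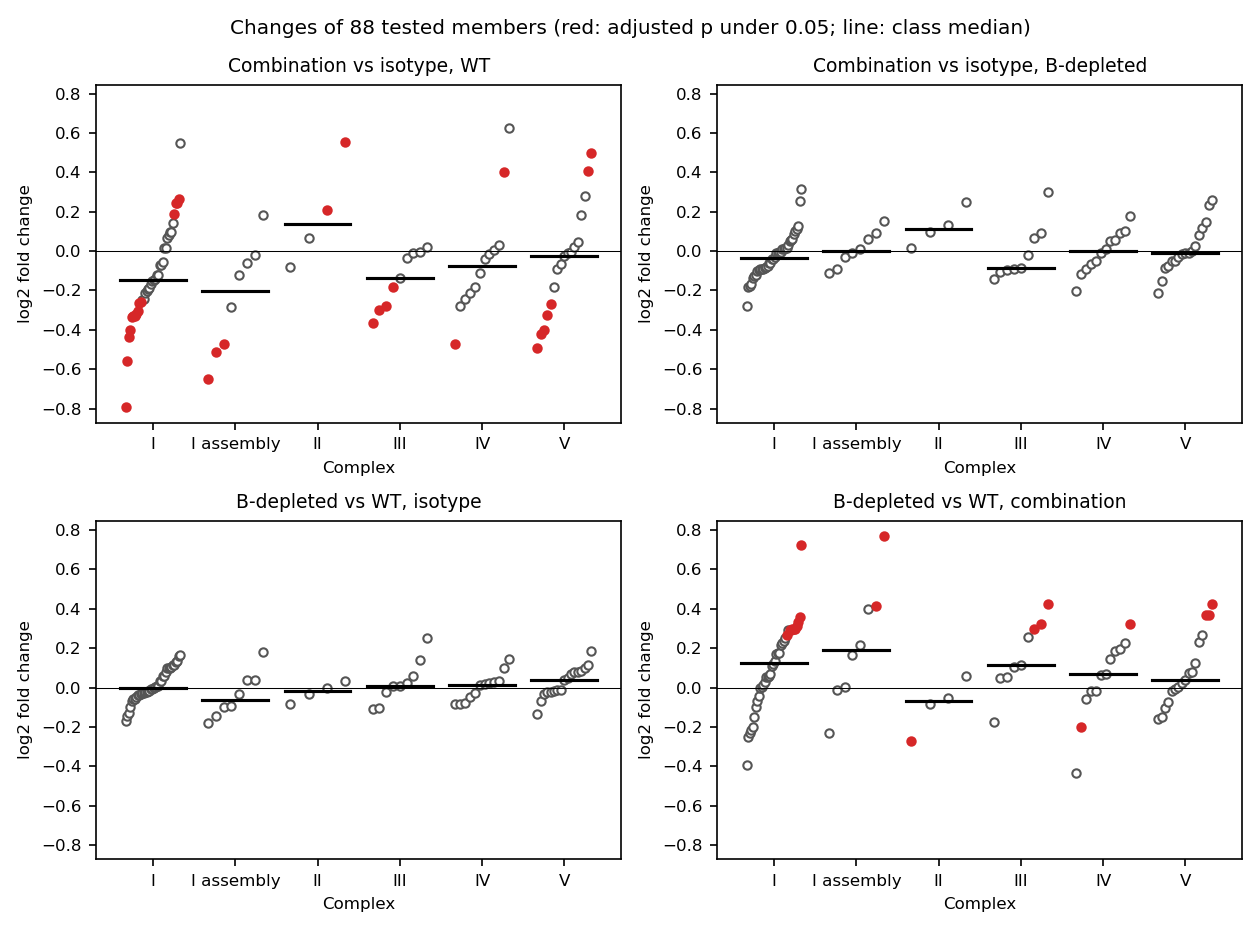
Log2 fold change of the 88 tested members in 4 comparisons, 1 point per gene within its complex, with filled red points for an adjusted p under 0.05 and a line for the class median. Red points are present for WT combination against isotype (33) and for B-depleted against WT under the combination (21), and absent from the other 2 panels.

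The test of the difference between the antibody responses, the interaction, called no member. The count was 0 of 88 where 0.0262% of all genes were called (0.0157% positive, 0.0105% negative), with a median of 0.093 against 0.013 for all genes, and 17 members had an unadjusted p under 0.05 by edgeR (25.6% of all genes) and 18 by limma voom, which also called none. Ndufa4 had the lowest adjusted p, 0.099, with a difference of 0.62 ± 0.199 and a 95% interval from 0.21 to 1.04. Ndufaf2 had 0.80 ± 0.264 (adjusted p = 0.103), Atp5a1 0.39 ± 0.129 (0.103), Sdhb -0.30 ± 0.118 (0.135), Cyc1 0.36 ± 0.163 (0.173) and Cox5a -0.23 ± 0.092 (0.145). DESeq2 called 3 members (Ndufa4, Ndufaf2 and Atp5a1, with 17 at an unadjusted p under 0.05), and edgeR called 7 without WT combination replicate 3, 5 without B-depleted combination replicate 5, and 4 without WT isotype replicates 1 and 2. All genes called rose with them, from 5 with every library in edgeR to 1154 with DESeq2 and to 1540, 1382 and 2007 in the other settings, so the counts are not particular to the members. Atp5a1 and Ndufa4 were among the calls in all 4 of these settings.

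Genes of the same pathways outside the rule were counted in the WT response from lists chosen with earlier results of these data known. The counts of these lists stand beside 25.0% of all genes that rose and 25.0% that fell in that response. Of 13 mitochondrially encoded subunit genes 10 were tested, 5 fell and none rose (median -0.59), led by mt-Cytb, cytochrome b of complex III, at -0.95 ± 0.199 (adjusted p = 0.000939). Their summed level was 15200 to 20400 CPM in WT isotype and 9110 to 17500 CPM in WT combination. It was 11300 to 15900 CPM in B-depleted isotype and 11300 to 15200 CPM in B-depleted combination. Between B-depleted and WT tumours under isotype the median was -0.46, with 0 of the 10 called, so lower levels than WT isotype were not particular to the combination. Levels were very uneven over the 21 libraries, and mt-Co1 alone stood at 5820 to 11500 CPM. The 10 tested include mt-Co2 (0.21 to 1.69 CPM), mt-Co3 (0.668 to 3.37) and mt-Atp6 (0.456 to 1.92), so the counts and median mix very unlike levels. mt-Nd3, mt-Nd4l and mt-Atp8 reached at most 0.513, 0.353 and 0.298 CPM. The reason for these low levels was not tested. Among 36 tested assembly factors of other complexes 5 rose and 5 fell (median -0.01): Coa3, a complex IV assembly factor, rose by 0.85 ± 0.116 (adjusted p = 5.74e-05), Coa7 fell by 0.46 ± 0.148 (adjusted p = 0.0154), and the copper chaperone gene Cox17 rose by 0.45 ± 0.132 (adjusted p = 0.00939). Of 13 citric acid cycle genes 9 fell and 1 rose (median -0.27), led by Suclg2, a subunit of succinyl-CoA ligase (-1.07 ± 0.183, adjusted p = 0.000232), Fh1, fumarate hydratase (-0.71 ± 0.135, 0.000457) and Mdh2, mitochondrial malate dehydrogenase (-0.66 ± 0.132, 0.000715).

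Of 10 carrier and electron shuttle genes 3 rose and 3 fell. Slc25a4, the muscle-type ADP/ATP carrier, rose by 1.26 ± 0.259 (adjusted p = 0.000848), while the outer-membrane channel gene Vdac1 fell by 0.45 ± 0.114 (0.00348) and the phosphate carrier Slc25a3 by 0.28 ± 0.078 (0.00604). Among 15 regulators of mitochondrial biogenesis 6 fell and 2 rose: the coactivator gene Ppargc1a fell by 1.43 ± 0.32 (adjusted p = 0.0015), Myc by 0.95 ± 0.179 (0.000452), and the mitochondrial DNA helicase gene Twnk by 0.83 ± 0.175 (0.000946). Of 20 glycolysis and hypoxia genes 6 fell and 2 rose (median -0.34), among them the lactate transporter gene Slc16a3 (1.12 ± 0.276, adjusted p = 0.00291), Hk2, hexokinase 2 (-0.84 ± 0.208, 0.00307) and Pfkp, a phosphofructokinase (0.64 ± 0.093, 7.57e-05). In B-depleted tumours none of the genes of these 6 lists was called, where 0.341% of all genes were. Between the combination groups 15.5% of all genes were higher and 13.5% lower in B-depleted tumours. There 6 of 13 citric acid cycle genes and 7 of 15 biogenesis regulators were higher and none lower. The other 4 lists did not move this way. Of 36 assembly factors 5 were higher and 4 lower, and of 10 carrier and shuttle genes 1 was higher and 1 lower. Of 20 glycolysis and hypoxia genes none was higher and 1 lower, and none of 10 mitochondrially encoded genes was called.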

How the data were processed

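The deposited values are raw read counts per Ensembl gene that the authors made with cutadapt 2.4 and STAR 2.7.2a on GRCm38, per the submitters' processing notes; the counting program and annotation release are not given there. Libraries were made with a stranded mRNA kit, per the labels' protocols. Symbols came from GENCODE M21 and matched 55227 of 55487 identifiers, and 0.0183% of counts had no symbol. Genes were filtered with filterByExpr, scaled by TMM (factors 0.953 to 1.029) and tested with edgeR 4.0.16 (robust quasi-likelihood, R 4.3.3) in 1 fit of the 4 groups, with Benjamini-Hochberg adjustment at 0.05 over 19061 genes and SE taken from the F value. DESeq2 1.42.0 and limma voom 3.58.1 were alternatives. Isoform ratios used 0.5 added to each count and two-sided exact permutation tests. Counts of within-group pairs differed by more than sampling noise (45 pairs, chi-square per degree of freedom at least 6.99). The fit was also run on simulated counts with changes put into a small part of the genes. Its outcome is not given here, so it does not bear on the results above.

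Members, lists and tests were chosen with earlier results of these data known. Named genes were, per class and comparison, up to 3 called members of largest rise and fall at a mean of 1 CPM or more, or else the member of smallest p, and a fixed set of core and tissue-restricted subunits; of the other lists, up to 3 called genes of largest change. Members named for not overlapping or for a motif were chosen after their values were seen. Depth was 9.52 to 19.17 counts per CPM (median 15.9), and floors cover counting error only. Of the tested members, 1 is counted in the totals but not reported here by name or drawn in the heatmap.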

Additional observations from a re-analysis of the deposited data

Results flagged for a closer look

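In groups of 5 or 6 libraries, a single library lay far from the others for 12 of the 180 gene and group pairs searched among named members (6.67%), where chance alone gives about 1 in 20; over all tested members it was 23 of 352 (6.53%). WT combination replicate 3 was high for Ndufv1 at 41.33 CPM (29.18 to 32.0 in the others), Uqcrfs1 at 63.59 (45.22 to 49.37), Uqcrq at 41.45 (27.39 to 31.08) and Atp5j2 at 24.47 (20.33 to 21.12). B-depleted combination replicate 5 was low for Ndufaf5 at 6.069 CPM (9.241 to 9.898), Sdha at 107.0 (127.8 to 135.6) and Atp5b at 460.3 (634.5 to 705.1). B-depleted isotype replicate 5 was low for Sdhd at 41.71 CPM (46.44 to 49.27), Uqcr11 at 14.89 (19.36 to 20.97) and Cox6c at 60.76 (76.69 to 85.85). WT isotype replicate 2 was high for Sdha at 135.2 CPM (125.9 to 127.5), and WT isotype replicate 3 for Cox6b1 at 74.73 CPM (62.99 to 64.59).

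B-depleted combination replicate 5 was also low in the share of all counts taken by the members, 0.3575% (0.4323% to 0.4555% in the other 4), by complex I genes, 0.09198% (0.1134% to 0.1177%), by complex I assembly factors, 0.005184% (0.007238% to 0.007395%), by complex III genes, 0.03524% (0.04198% to 0.04437%), and by complex V genes, 0.1408% (0.1736% to 0.1861%).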

How the results depend on the processing

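In all 34 alternatives were run, 21 of them leaving out 1 library; the hepatoma covariate and leaving out B-depleted combination replicates 4 and 5 were added after the data were seen. The members risen in WT tumours (9) numbered 4 with no filter, 5 with only the groups compared, 5 with the replicate block by description code, 5 with the muscle covariate, 4 without WT isotype replicates 1 and 2, and 0 with the Y-linked or the hepatoma covariate, under which those fallen (24) were also 0 and the median was 0.154 and 0.103. All genes called in WT, 9529 in the main fit, numbered 8541, 8640, 8249, 7461 and 9753 in the first 5 of these settings. With the Y-linked and hepatoma covariates they numbered 72 and 205. For B-depleted against WT combination, the members higher (19) numbered 8 with no filter, 8 with only the groups compared, 1 with the muscle covariate and 0 with either other covariate. Those lower (2) numbered 0, 1, 0 and 0 in the same order and 4 without B-depleted combination replicates 4 and 5, and the median became -0.045 (Y-linked) and -0.073 (hepatoma). All genes called in that comparison numbered 5545 in the main fit, 3343 with no filter and 3727 with only the groups compared. They fell to 720 with the muscle covariate, 4 with the Y-linked covariate and 0 with the hepatoma covariate. The interaction called 3 members with DESeq2 and 4 without WT isotype replicates 1 and 2, and its median became -0.062 and -0.063 with the Y-linked and hepatoma covariates.

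Leaving out 1 library gave 4 to 9 risen, 17 to 34 fallen and a median of -0.153 to -0.067 in WT, 0 called in the B-depleted response and under isotype, 6 to 29 higher and 0 to 3 lower between the combination groups, and 0 to 7 in the interaction. The WT count of 9 risen moved by over 1.5 times without WT isotype replicate 1 (4) or 4 (5) or WT combination replicate 3 (5).

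With the Y-linked and hepatoma covariates 8 and 15 of the 24 fallen members kept their sign in WT. Among the genes named by rule for a change in WT, the reversed values, none past the threshold, were those with the Y-linked covariate of Ndufa6 (0.333), Ndufaf4 (0.055), Uqcr10 (0.133), Cyc1 (0.156), Uqcrfs1 (0.161), Atp5b (0.059), Atp5j2 (0.101) and Atp5a1 (0.032), and with the hepatoma covariate of Ndufa6 (0.125), Cyc1 (0.145) and Uqcrfs1 (0.089). The cause was not tested. Replicate numbers showed no clear pairing of the libraries. Deviations of same-numbered libraries correlated from -0.42 to 0.66 (median 0.02) and passed 0.1 in 12 of 30 pairs. Differently numbered libraries gave -0.58 to 0.56 (median 0) and 42 of 135 pairs. By description code the pairs over 0.1 were 8 of 27 with the same number and 46 of 138 with different numbers. With the replicate block by description code 24 members were called in WT and 21 between the combination groups. With the replicate block by title number 9 members rose and 27 fell in WT, and 19 were higher and 2 lower between the combination groups. Genes near the filter, such as the muscle forms, are limited by depth.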
